A study of Mus musculus with 15 samples.

Results

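The 10 genes described here encode proteins that act on RNA after transcription: the ELAV proteins Elavl1, Elavl2, Elavl3 and Elavl4, the NOVA proteins Nova1 and Nova2, Celf3, Srrm4, Rbfox3 and Ptbp1. All but Elavl1 and Ptbp1 are best known from neurons. They were taken by name from the expression matrix, in which each of the 10 had 1 row among 55359 genes. The names were chosen with earlier results of these data known. The paper on these lines had already reported Elavl3 and Elavl4 (written Elav3 and Elav4) as up-regulated in SCLC cells and allografts. The data are poly-A selected RNA-seq profiles of 15 mouse samples in 5 groups of 3. 46LCNEC_cell is a line from a large cell neuroendocrine carcinoma (LCNEC) that grew in the lung of a QKO mouse after a virus had brought in Cre recombinase under the broadly active CMV promoter, grown as an adherent monolayer (dishes A, B and C). 57SCLC_cell is a line from a small cell lung carcinoma (SCLC) of a QKO mouse whose virus drove Cre from the keratin K5 promoter, grown as floating aggregates (flasks A, B and C). QKO mice carry floxed Rb1, Trp53 and a further floxed tumor suppressor gene together with a null Rbl1, so that both lines start from the same alleles. 46LCNEC_allo (tumors 312, 319 and 321) and 57SCLC_allo (tumors 275, 316 and 317) are tumors that the same lines formed under the skin of immunocompetent QKO mice, and Lung is normal lung of littermates CT3, CT4 and CT5. Each tumor type is represented by 1 line, and the lines were sampled at different passages. Tumor type, Cre promoter, growth in suspension, passage and the line itself therefore cannot be told apart, and p-values measure only the spread between the samples of that line.

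Neurons differ from other cells in how they cut and keep their transcripts. ELAV proteins bind U-rich stretches and stabilize mRNAs; Elavl1 (HuR) is made in nearly all cells, while Elavl2, Elavl3 and Elavl4 (HuB, HuC and HuD) are neuronal and are the Hu antigens that some SCLC patients raise antibodies against. NOVA, CELF, RBFOX and SRRM proteins steer alternative splicing, with Srrm4 promoting the microexons of neurons, and Ptbp1 keeps neuronal exons out of transcripts in cells that are not neurons. Srrm4 also splices the mRNA of the repressor Rest into a weak form, and REST in turn silences neuronal genes outside the nervous system.

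The shallowest library, that of tumor 275, held 9480244 counted reads, the deepest, that of flask C, 44876572, and the median was 26502525. Values are normalized counts, that is, reads divided by a size factor of the library, and a library with at most 3 reads of a gene is called here at the floor. The labels were checked against 7 neuroendocrine genes (Chga, Chgb, Syp, Insm1, Scg3, Scg2 and Calca). Their summed normalized count was 89900 to 96220 in 57SCLC_cell and 47080 to 59480 in 57SCLC_allo, but 18.45 to 41.9 in the 46LCNEC dishes and 20.0 to 55.3 in the 46LCNEC tumors, below the 225 to 236.5 of Lung, and Scg2 was at the floor in all 6 samples of 46LCNEC. In RNA, these genes thus go against the neuroendocrine part of the LCNEC label. The samples are called 46LCNEC by the name of the line alone. At the protein level, the paper on these lines reported cells staining for NCAM, SSTR2 and CGRP, and subcutaneous tumors staining for chromogranin A and CGRP. Chga and Calca encode chromogranin A and CGRP, so low RNA counts stand beside positive staining, and the cause was not tested. Flask C was farther from flasks A and B than these were from each other. The root mean square difference of log2 values over genes was 0.557 and 0.555 from A and B, against 0.348 between A and B. It was 0.482 to 0.54 between dishes and 0.545 to 0.646 between Lung samples, so by this measure flask C lay within the range of Lung. By the share of genes over 2-fold apart it did not. That share was 7.92% and 8.06% from flasks A and B, against 6.26% to 7.5% between dishes and 5.5% to 6.89% between Lung samples. It was 3.23% between flasks A and B, and 8.8% to 22.7% between tumors of 1 line. The values of the 10 regulators in all 15 samples are plotted first, and the difference between the lines next.

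**Figure D1:**
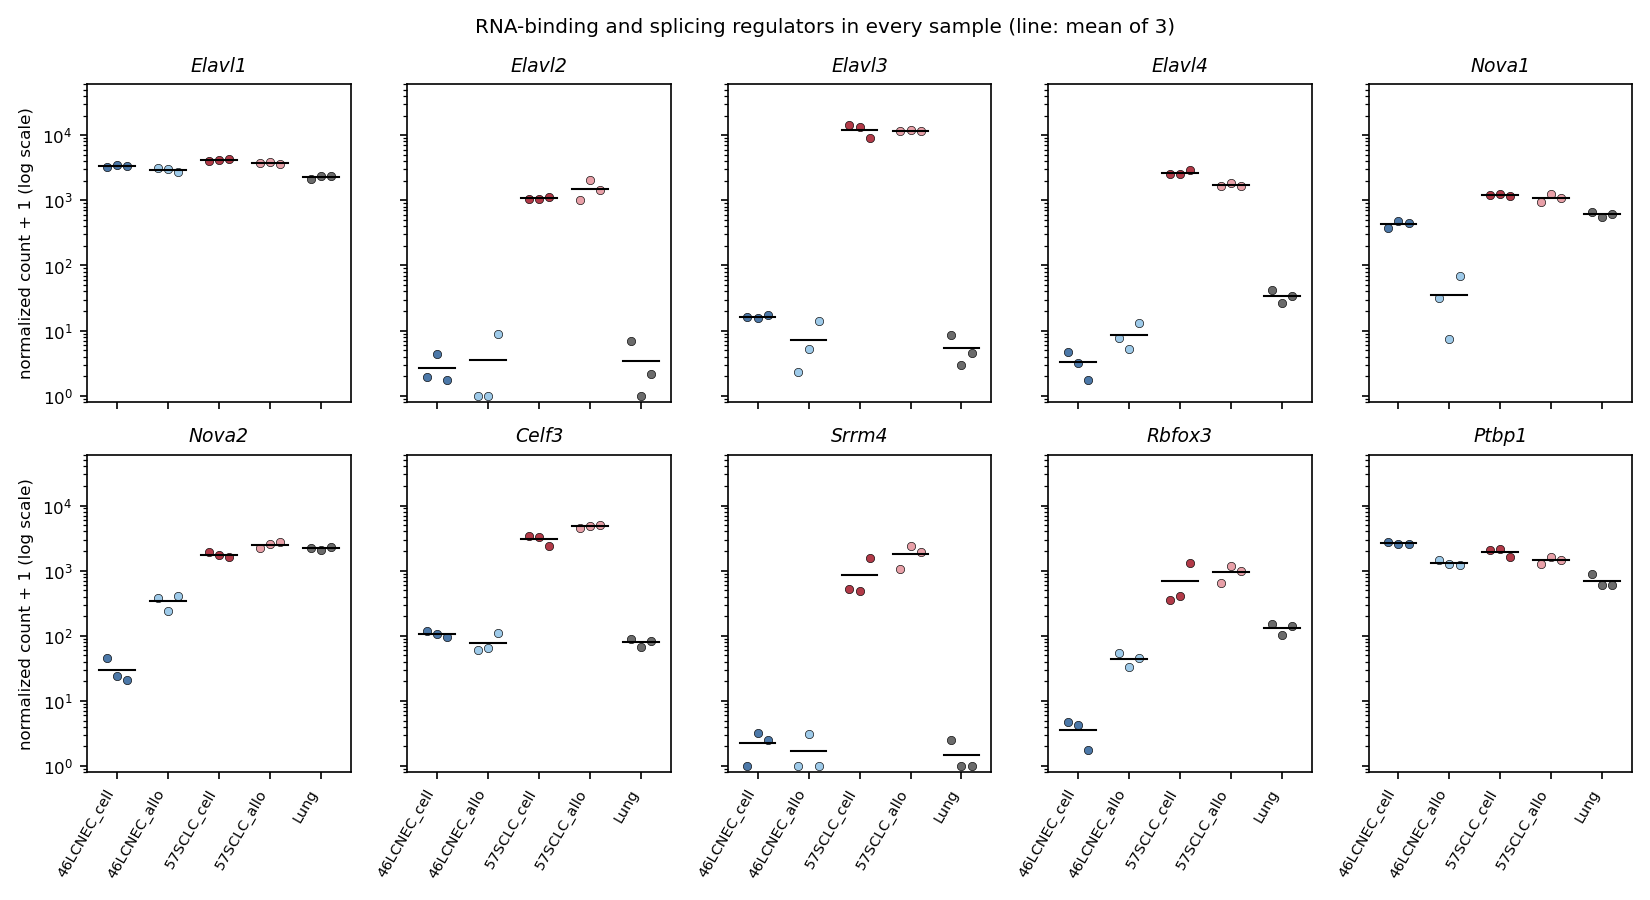
Normalized counts plus 1 of the 10 regulators on a log axis, with 1 point per sample and a line at the mean of 3 for each group. Elavl2, Elavl3, Elavl4, Celf3, Srrm4 and Rbfox3 were higher in all 6 samples of 57SCLC than in any other sample, whereas Elavl1 stayed between 2135 and 4329 in all 15.

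The first question was how the lines differ. In culture, 8 of the 10 genes were called higher in 57SCLC_cell than in 46LCNEC_cell and none lower, where a call is an adjusted p of at most 0.01 (limma over all genes tested, Benjamini-Hochberg) and at least a 2-fold change on log2(normalized count + 1). Over all genes 46.1% were called, 23.9% higher and 22.2% lower, so that a call by itself was common. The median log2 fold change was 6.69 over the 10 genes, and 0 over all 16920 genes tested. Genes were tested if they reached 10 normalized counts in at least 3 of the compared samples. Elavl2, Elavl4, Srrm4 and Rbfox3 were under 10 in every dish. They were tested only through the flasks and could be called only higher. The count and the median are therefore a description and no test against all genes. Between the allografts the same 8 genes were called higher in 57SCLC_allo, with a median of 5.72 against 0.015 over 17502 genes, of which 30.4% were called. Elavl2 and Srrm4 were under 10 in every 46LCNEC tumor, so there too they could be called only higher. With Elavl2 and Srrm4 in culture and Srrm4 in the allografts set to the lower limits of their ratios given below, the medians were 6.69 and 5.72. At those limits these genes still lay above the medians and could not move them. This therefore says nothing of how firm the medians are. Of all calls between the allografts, 53.1% were upward, and 64.2% when libraries were scaled to their totals only. Elavl1 and Ptbp1 were the 2 genes not called in either setting.

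**Figure D2:**
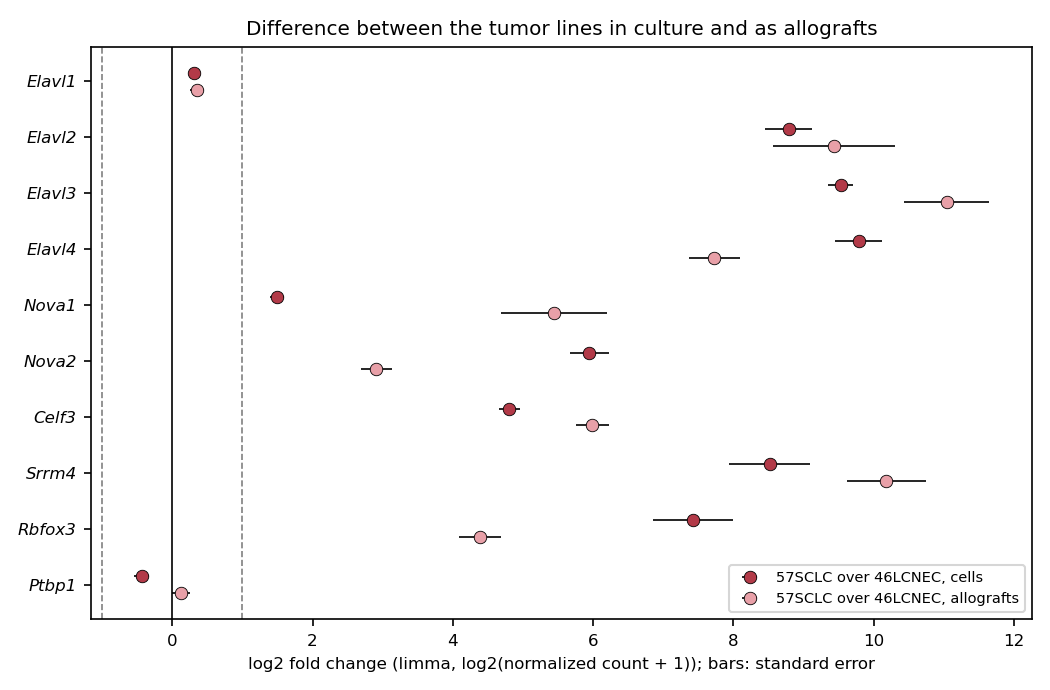
Log2 fold change of 57SCLC over 46LCNEC for each regulator, in culture (dark) and as allografts (light), with standard errors; dashed lines mark a 2-fold change. Elavl2, Elavl3, Elavl4, Celf3, Srrm4 and Rbfox3 lay above 4 in both settings, Elavl1 and Ptbp1 lay between -0.44 and 0.35, and Nova1 and Nova2 changed places.

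Among the ELAV genes, Elavl3 (ENSMUSG00000003410, chromosome 9, 21926301 to 21963324, minus strand, GRCm39) had the highest count. It had 14210, 13280 and 9004 normalized counts in flasks A, B and C, and 11689, 11894 and 11726 in tumors 275, 316 and 317. In 46LCNEC it had 15.01, 14.3 and 16.1 in the dishes and 1.32, 4.21 and 13.3 in tumors 312, 319 and 321, and Lung had 7.47, 1.99 and 3.51. The 6 samples of 57SCLC thus stood far above every other sample, and the cell and tumor samples of 57SCLC overlapped. Between the lines the log2 fold change was 9.53 ± 0.17 (standard error) in culture (adjusted p = 5.99e-09, limma) and 11.04 ± 0.60 as tumors (adjusted p = 2.32e-05).

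Elavl4 (ENSMUSG00000028546, chromosome 4, 110060810 to 110209142, minus strand) and Elavl2 (ENSMUSG00000008489, chromosome 4, 91138905 to 91289022, minus strand) showed the same division between the lines at lower counts. Elavl4 had 2555, 2521 and 2894 normalized counts in flasks A, B and C, 1657, 1825 and 1660 in the 57SCLC tumors, and 3.75, 2.21 and 0.769 in the 46LCNEC dishes. The 46LCNEC tumors had 6.62, 4.21 and 12.2 of it and Lung 41.1, 25.9 and 32.8, so that Lung was above all 6 samples of 46LCNEC. The lines differed by 9.79 ± 0.34 on the log2 scale in culture and by 7.73 ± 0.36 as tumors (adjusted p = 7.93e-08 and 1.51e-05). Elavl2 had 1062, 1052 and 1143 normalized counts in the flasks and 996, 2019 and 1435 in the 57SCLC tumors. In 46LCNEC_cell it had 1, 3 and 1 reads per library, and the ratio of 57SCLC_cell to 46LCNEC_cell was 712 (95% exact binomial interval 305 to 2190, counting error only). Among the other samples, tumor 321 had 7 reads and CT3 8 reads of Elavl2, and the remaining 4 had at most 1. The fitted log2 fold change between the lines was 8.79 ± 0.34 in culture and 9.43 ± 0.87 as tumors (adjusted p = 1.47e-07 and 0.000174).

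Elavl1 (ENSMUSG00000040028, chromosome 8, 4332576 to 4375489, minus strand), the widely expressed member, differed little. Its normalized counts were 4055, 4102 and 4329 in the flasks, 3710, 3907 and 3639 in the 57SCLC tumors, 3259, 3451 and 3363 in the dishes, 3140, 2988 and 2689 in the 46LCNEC tumors and 2135, 2375 and 2349 in Lung. The means were 4162 ± 146 for the flasks and 2286 ± 132 for Lung (SD, n = 3), and no neighbouring groups in this order overlapped. Between the lines it differed by 0.31 ± 0.07 on the log2 scale in culture (adjusted p = 0.00284) and by 0.35 ± 0.10 as tumors (adjusted p = 0.0181), both under the 2-fold limit. Of its merged exon bases, 4.3% overlap Ccl25 on the other strand, which reached 1298 normalized counts.

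Levels of different genes can be compared only per length, and the merged exons of each gene were used as its length. Per kilobase, Elavl1 made up 98.9% ± 0.099 (SD, n = 3) of the ELAV family in the 46LCNEC dishes, 98.8% ± 1.08 in the tumors of that line and 95.9% ± 1.42 in Lung, but 11.4% ± 2.04 in the flasks and 11% ± 0.213 in the 57SCLC tumors. Elavl3 made up 66.0% ± 6.94 and 70.2% ± 2.00 of the family in 57SCLC_cell and 57SCLC_allo. The summed level of the family was 2648 and 2433 normalized counts per kilobase in these groups, against 242 in the dishes, 212 in the tumors of 46LCNEC and 169.7 in Lung. The per-length level of Elavl1 itself was 296.5 in the flasks and 239 in the dishes, so that the sums differed mostly through the 3 neuronal members. The longest stretch shared by transcripts of any pair of ELAV genes was 29 bases, and reads were 150 bases long.

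**Figure D3:**
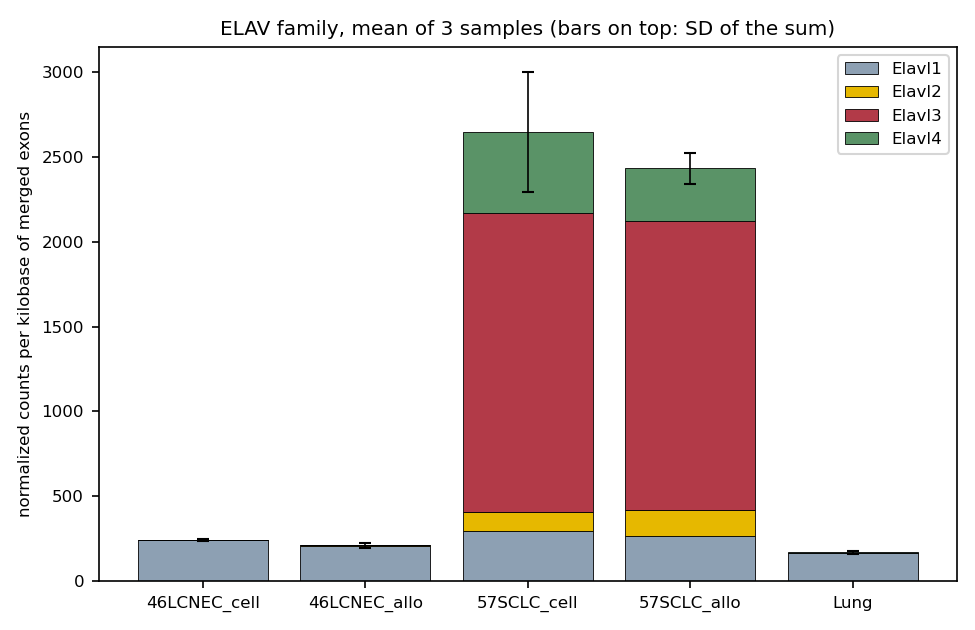
Normalized counts per kilobase of merged exons of the 4 ELAV genes, stacked, as means of 3 samples, with the SD of the sum. The Elavl1 layer ran from 162.9 in Lung to 296.5 in 57SCLC_cell, and the Elavl3 layer took 1763 and 1706 of the totals in 57SCLC_cell and 57SCLC_allo.

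The NOVA genes, which bind YCAY motifs in neuronal transcripts, changed in opposite directions between dishes and tumors of 46LCNEC. Nova1 (ENSMUSG00000021047, chromosome 12, 46741300 to 46866286, minus strand) had 379, 477 and 449 normalized counts in the 46LCNEC dishes but 30.5, 6.32 and 67.5 in tumors 312, 319 and 321. It had 1224, 1256 and 1180 in the flasks, 946, 1261 and 1080 in the 57SCLC tumors and 671, 552 and 606 in Lung. Only 46LCNEC_allo was far below the rest, and its 3 tumors spanned 10.7-fold. Between the lines the log2 fold change was 1.49 ± 0.10 in culture (adjusted p = 4.19e-06) and 5.44 ± 0.76 as tumors (adjusted p = 0.00104). With all 15 samples in 1 model, the adjusted p in culture was 0.0217, which ended that call. From the dishes to the 46LCNEC tumors Nova1 fell, with a log2 fold change of -4.11 ± 0.73 (adjusted p = 0.00297). Without dish A, B or C in turn the adjusted p was 0.0157, 0.0156 and 0.0162, which ended the call, while the log2 fold change stayed between -4.84 and -3.22 over all samples left out.

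Nova2 (ENSMUSG00000030411, chromosome 7, 18659789 to 18699244, plus strand) went the other way. It had 44.1, 23.2 and 20.0 normalized counts in the 46LCNEC dishes and 384, 237 and 403 in the 46LCNEC tumors, which was a rise of 3.55 ± 0.36 on the log2 scale (adjusted p = 0.00026) that stayed called whichever of the 6 samples was left out. Lung had 2241, 2058 and 2331, and 57SCLC had 1945, 1722 and 1603 in the flasks and 2209, 2595 and 2722 in the tumors, so Lung and 57SCLC_allo overlapped. Between the lines its log2 fold change was 5.95 ± 0.28 in culture and 2.91 ± 0.22 as tumors (adjusted p = 3.84e-07 and 7.83e-05). Per kilobase, Nova1 made up 90.8% ± 4.79 of the pair in 46LCNEC_cell and 5.64% ± 4.21 in 46LCNEC_allo, against 31.9% ± 1.89 in the flasks, 22.7% ± 1.81 in the 57SCLC tumors and 15.6% ± 0.99 in Lung. With the longest transcript as the length, the share of Nova1 was 94.0% in 46LCNEC_cell and 8.72% in 46LCNEC_allo. Allografts hold host cells, and in bulk RNA fewer cells of a type and less RNA per cell cannot be told apart. The summed level of 5 endothelial markers (Pecam1, Cdh5, Kdr, Tek and Vwf) was 397 to 489 in the dishes, 4854 to 8562 in the 46LCNEC tumors and 81380 to 98090 in Lung, with Cdh5 at the floor in the dishes. The sum of 5 fibroblast markers (Col1a1, Dcn, Pdgfra, Pdgfrb and Lum) was 27080 to 29740 in the dishes, with Lum at the floor, and 172500 to 370700 in the tumors. Lung had 18370 to 19860, so the cultured line itself held fibroblast markers, and in 46LCNEC their sum does not stand for host cells alone. Against Lung, 1 of the 5 was called higher in the dishes and 3 lower (20.6% and 35% of all genes). That of 5 immune markers (Ptprc, Cd3e, Adgre1, Csf1r and Cd79a) was 37.5 to 75.3 in the dishes, with Adgre1 and Cd3e at the floor, and 6701 to 13080 in the tumors. The part of these markers in the differences of Nova1 and Nova2 was not tested. In 57SCLC the endothelial sum was 7142 to 7813 in the flasks, nearly all of it Vwf, with Cdh5 and Kdr at the floor, and Nova2 had 1603 to 1945 there.

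Celf3 (ENSMUSG00000028137, chromosome 3, 94385602 to 94399505, plus strand), a splicing factor of the CELF family found mainly in the nervous system, had 3345, 3302 and 2380 normalized counts in the flasks and 4548, 4824 and 5103 in the 57SCLC tumors. The 46LCNEC dishes had 116, 106 and 94.6, the 46LCNEC tumors 59.6, 64.2 and 110, and Lung 88.2, 65.8 and 81.9. All 57SCLC samples were far above every other sample, and the 57SCLC tumors were above the flasks without overlap. The lines differed by 4.81 ± 0.15 on the log2 scale in culture (adjusted p = 5.49e-08) and by 5.99 ± 0.24 as tumors (adjusted p = 9.54e-06). Per kilobase, Celf3 was 25.5% ± 1.09 of the 6 CELF genes in 57SCLC_allo and 17.4% ± 4.53 in 57SCLC_cell. In these groups Celf4 held 36.6% and 41.9% and the widely expressed Celf1 24.6% and 28.5%, whereas Celf1 held 72.0% to 73.0% in 46LCNEC and Lung. These shares depend on the length used: with the longest transcript, Celf1 held 15% and 17.5% in 57SCLC_allo and 57SCLC_cell and 51.5% to 54.4% in 46LCNEC and Lung.

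Srrm4 (ENSMUSG00000063919, chromosome 5, 116577334 to 116729924, minus strand), the activator of neuronal microexons, was at or under 2 reads in all samples but those of 57SCLC. It had 513, 492 and 1587 normalized counts in flasks A, B and C and 1068, 2405 and 1903 in the 57SCLC tumors. The ratio of 57SCLC_cell to 46LCNEC_cell was 726 (95% exact binomial interval 283 to 2670), and that of 57SCLC_allo to 46LCNEC_allo 2490 (688 to 20500), intervals that cover counting error only. The fitted log2 fold changes were 8.52 ± 0.57 and 10.18 ± 0.56 (adjusted p = 3.42e-06 and 2.35e-05), and they depend on the constant added before the logarithm. Flask C was the highest of the 3 flasks, and without it Srrm4 was still called between the cell groups, with a log2 fold change of 7.97.

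Srrm3, the close relative of Srrm4, divided the groups in the same way at a higher level. It had 7459, 7375 and 6842 normalized counts in the flasks, 4062, 4371 and 4505 in the 57SCLC tumors, at most 46.4 in the dishes and at most 7.74 in the 46LCNEC tumors and Lung. Per kilobase it made up 92.0% of the pair in 57SCLC_cell and 77.1% in 57SCLC_allo. Rest, whose mRNA Srrm4 is known to splice and whose protein represses neuronal genes, was the mirror image in culture: 6.55, 9.05 and 5.73 normalized counts in the flasks against 1947, 1878 and 1874 in the dishes, and 1249, 1181 and 1239 in Lung. The flasks were lower, with a log2 fold change of -7.89 ± 0.18 (adjusted p = 1.29e-08). In 57SCLC_allo it had 201, 160 and 255, above the flasks (log2 fold change 4.67, adjusted p = 4.94e-06) and still below 46LCNEC_allo (3111, 3432 and 2429, log2 fold change -3.87, adjusted p = 2.32e-05). The host markers moved with it: fibroblast markers summed to 22.9 to 28.9 in the flasks and 17080 to 26980 in the 57SCLC tumors, and immune markers to 34.9 to 42.2 and 1866 to 3201. Their part in the level of Rest was not tested, and counts per gene do not separate the spliced forms of Rest. Of the 8 genes of the REST repressor complex examined, Rest alone was called lower in 57SCLC in both settings. In cells Rcor3 was called higher (log2 fold change 1.04), and the other 6 (Rcor1, Rcor2, Sin3a, Hdac1, Hdac2 and Kdm1a) were not called in either setting. With 46.1% of all genes called in cells and 30.4% in allografts, these calls are no result about the complex.

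**Figure D4:**
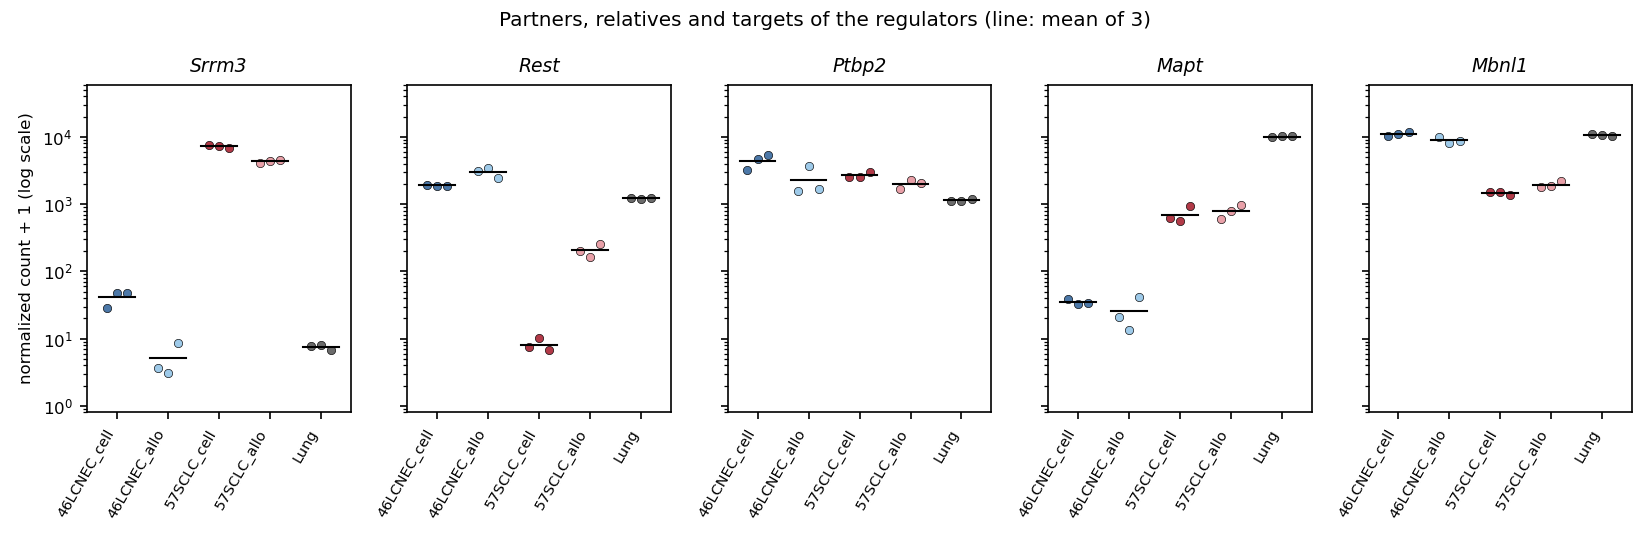
Normalized counts plus 1 on a log axis of Srrm3, Rest, Ptbp2, Mapt and Mbnl1, with 1 point per sample and a line at the mean of 3. Rest had at most 9.05 in the flasks and 160 to 255 in the 57SCLC tumors, and Srrm3 had at least 4062 in all 6 samples of 57SCLC and at most 46.4 elsewhere.

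Rbfox3 (ENSMUSG00000025576, chromosome 11, 118380442 to 118802423, minus strand) encodes NeuN, the antigen used to stain mature neurons. It had 352, 402 and 1287 normalized counts in flasks A, B and C and 639, 1186 and 991 in the 57SCLC tumors, against 3.75, 3.31 and 0.769 in the 46LCNEC dishes. The 46LCNEC tumors had 53.0, 32.6 and 44.2 and Lung 149, 103 and 138, so that the order was 57SCLC, Lung, 46LCNEC_allo and 46LCNEC_cell with no overlap between these levels, while the groups of 57SCLC overlapped. The lines differed by 7.42 ± 0.57 on the log2 scale in culture (adjusted p = 7.26e-06) and by 4.39 ± 0.31 as tumors (adjusted p = 5.44e-05). From dishes to tumors it rose in 46LCNEC by 3.72 ± 0.49 (adjusted p = 0.000827), with the endothelial, fibroblast and immune markers given above, whose part was not tested. Without flask C, which was the highest of the 3 for Rbfox3 and Srrm4 and the lowest for Elavl3 and Celf3, the difference between the cell groups was 6.83 and still called. Rbfox2, the widely expressed relative, made up 89.6% to 97.3% of the RBFOX genes per kilobase in the group means, and Rbfox3 at most 5.78%. With the longest transcript as the length, Rbfox2 made up 80.3% and Rbfox3 12.1% in 57SCLC_allo.

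Ptbp1 (ENSMUSG00000006498, chromosome 10, 79690261 to 79700605, plus strand), the repressor of neuronal exons, did not follow the division between the lines. It had 2721, 2559 and 2573 normalized counts in the 46LCNEC dishes, 2075, 2128 and 1636 in the flasks, 1446, 1286 and 1216 in the 46LCNEC tumors, 1254, 1601 and 1457 in the 57SCLC tumors, and 902, 604 and 596 in Lung. Every tumor or cell sample was above Lung, and the cell groups were above both groups of allografts. Between the lines the log2 fold change was -0.44 ± 0.11 in culture (adjusted p = 0.00641) and 0.12 ± 0.13 as tumors (adjusted p = 0.444), neither of them called. Ptbp2, the neuronal relative whose transcript Ptbp1 is known to repress, had 3209, 4700 and 5418 in the dishes, 2565, 2540 and 2993 in the flasks, 1548, 3683 and 1694 in the 46LCNEC tumors, 1654, 2299 and 2040 in the 57SCLC tumors, and 1129, 1128 and 1179 in Lung. Per kilobase of merged exons, the ratio of Ptbp1 to Ptbp2 was 1.60 ± 0.51 in the dishes, 1.72 ± 0.761 in the tumors of 46LCNEC, 1.88 ± 0.413 in the flasks, 1.86 ± 0.082 in the tumors of 57SCLC and 1.58 ± 0.415 in Lung (SD, n = 3), and all 5 ranges overlapped. Of the merged exon bases of Ptbp1, 5.81% overlap Plppr3 on the other strand, which reached 1639 normalized counts. Since the strand setting of the counting is not given in the sources used here, reads of the 2 genes in this stretch cannot be told apart.

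The second question was how the tumors differ from normal lung. The 4 comparisons below share the 3 Lung samples, so they are given side by side and not counted against each other. In 57SCLC_cell, 8 of the 10 genes were called higher than in Lung (53.8% of all genes called, 21.1% higher), and in 57SCLC_allo 7 were (45.8%, 18.9% higher). Elavl2, Elavl3 and Srrm4 were under 10 normalized counts in every Lung sample, so in 57SCLC they could be called only higher. Against Lung, the log2 fold changes of 57SCLC_cell and 57SCLC_allo were 11.26 and 11.24 for Elavl3, 8.78 and 9.17 for Elavl2, 9.09 and 10.29 for Srrm4, 6.30 and 5.67 for Elavl4, 5.23 and 5.93 for Celf3, 2.13 and 2.81 for Rbfox3, and 1.49 and 1.06 for Ptbp1. Nova2 was called in neither, with -0.33 (adjusted p = 0.012) and 0.18 (adjusted p = 0.13), and Nova1 at 1.00 (called) and 0.84 (not called). The call of Nova1 in 57SCLC_cell ended without flask B (log2 fold change 0.98) or CT4 (0.93). That of Rbfox3 ended without CT3, CT4 or CT5 (adjusted p = 0.0158, 0.0216 and 0.0153). That of Ptbp1 in 57SCLC_allo ended without tumor 316, CT4 or CT5 (log2 fold change 0.97, 0.96 and 0.95). Elavl1 was not called in either, with log2 fold changes of 0.87 and 0.72, both under 2-fold. Scaling by library totals added calls for Elavl1 in 57SCLC_cell (1.09) and Nova1 in 57SCLC_allo (1.04).

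In 46LCNEC_cell, 5 of the 8 genes tested were called against Lung (55.6% of all genes), with Elavl2 and Srrm4 too low to test. Nova2 (-6.28), Rbfox3 (-5.29) and Elavl4 (-3.49) fell, and Ptbp1 (1.93) and Elavl3 (1.73) rose. Rbfox3 and Elavl4 were under 10 normalized counts in every dish and could be called only lower. Elavl3 was under 10 in every Lung sample and could be called only higher. The rise of Elavl3 was from 2 to 10 reads per library in Lung to 13 to 21 in the dishes, and its call ended without dish A, B or C or CT5, with adjusted p-values of 0.0112 to 0.0156, and also with DESeq2 (0.0187). In 46LCNEC_allo, 4 of 7 genes tested were called, all lower than in Lung (35.6% of all genes called, 22.1% lower): Nova1 (-4.60), Nova2 (-2.73), Elavl4 (-2.06) and Rbfox3 (-1.57). Only Nova2 stayed called whichever sample was left out. Nova1 was lost without CT3, CT4 or CT5 (adjusted p = 0.0114 to 0.0133), Rbfox3 without CT3 or CT5 (0.0199 and 0.0205), and Elavl4 without tumor 312 or 319 or any of the 3 Lung samples (0.0138 to 0.0293). Ptbp1 (0.93, not called) was called higher than Lung without CT3 (1.13) and with TMM scaling (1.01). In all 1 to 4 genes were called when a sample was left out: Nova2 alone without CT5, Nova2 and Rbfox3 without CT4, and Nova2 and Ptbp1 without CT3. The median log2 fold change of all genes was -0.23 in 46LCNEC_cell over Lung and -0.14 in 46LCNEC_allo over Lung, which these values include.

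The third question was what growth as a tumor changed in each line. In 57SCLC, none of the 10 genes was called between allografts and cells by limma, DESeq2 or edgeR, where 16.6% of all genes were, and 5 of the 10 had an unadjusted p under 0.05. The nearest were Celf3 (log2 fold change 0.70, adjusted p = 0.00443), Elavl4 (-0.63, adjusted p = 0.00069) and Nova2 (0.51, adjusted p = 0.00691), all under 2-fold. Without flask C, Srrm4 (1.75, adjusted p = 0.00275) and Rbfox3 (1.27, adjusted p = 0.00437) were called higher in the tumors. With all flasks, the adjusted p was 0.0727 for Srrm4 and 0.281 for Rbfox3. In 46LCNEC, 3 of the 7 genes tested were called (22.8% of all genes): Nova2 and Rbfox3 higher and Nova1 lower in the tumors, as given above. Rbfox3 was under 10 normalized counts in every dish, so it could be called only higher. Ptbp1 was just short of the 2-fold limit (log2 fold change -0.99, adjusted p = 0.000265), and was past it without dish B (-1.01), dish C (-1.01) or tumor 312 (-1.06), or with scaling by library totals (-1.05). Elavl3 had a log2 fold change of -1.54 (adjusted p = 0.0871), and without tumor 321 it was -2.21 and called.

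Whether the difference between the lines itself differed between allografts and cells was tested with an interaction term over the 12 samples. It was called for 5 of the 10 genes, against 17.5% of all genes. The difference grew in the allografts for Nova1 (3.95, standard error 0.81, adjusted p = 0.0026) and Celf3 (1.18, 0.30, adjusted p = 0.00885). It shrank for Nova2 (-3.04, 0.38, adjusted p = 8.95e-05), Rbfox3 (-3.04, 0.71, adjusted p = 0.00598) and Elavl4 (-2.06, 0.52, adjusted p = 0.0092), all of which had more counts in 46LCNEC_allo than in 46LCNEC_cell. Nova1 and Nova2 stayed called whichever of the 12 samples was left out. Celf3 was lost in 11 of 12 cases, all but that without tumor 321, and Elavl4 in 10 of 12, all but those without dish A or tumor 319. Rbfox3 was lost without dish C or tumor 312, 275 or 317 (adjusted p = 0.0135 to 0.0179). The number of genes called was 2 to 5 when a sample was left out, with 2 without dish C or tumor 312, 275 or 317 and 3 without dish B, any flask or tumor 316. Elavl3 (1.52, adjusted p = 0.0938) was called only without tumor 321 (2.19, adjusted p = 0.00104).

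Relatives of the regulators were examined as lists. Of 9 neural relatives (Celf4, Celf5, Celf6, Rbfox1, Srrm3, Ptbp2, Khdrbs2, Khdrbs3 and Msi1), 8 could be tested and 6 were called higher in 57SCLC in cells and 6 in allografts, where 23.9% and 16.1% of all genes were, with medians of 2.61 and 3.49. Srrm3, Celf6, Celf5 and Celf4 had the largest changes in the allografts, with log2 fold changes of 9.86, 7.25, 4.40 and 3.58 (adjusted p = 1.07e-05, 2.46e-05, 1.34e-05 and 7.07e-06). Srrm3 and Celf6 were under 10 normalized counts in every 46LCNEC tumor, so in the allografts they could be called only higher. Ptbp2 and Rbfox1 were the tested relatives not called, and Khdrbs2 was too low to test. Of 12 widely expressed relatives, 1 was called higher and 3 lower in 57SCLC in each setting, with medians of -0.21 and -0.17. With 46.1% of all genes called in cells and 30.4% in allografts, these 4 calls are no result about the list. The 3 lower ones, in both settings, were Mbnl3, Mbnl1 and Qk, of which Mbnl1 and Mbnl3 are muscleblind splicing factors, known best from muscle, and Qk a splicing factor of glia and muscle. Mbnl1 had 1490, 1504 and 1369 normalized counts in the flasks against 10460, 11080 and 11780 in the dishes, and its log2 fold change in allografts was -2.20 (adjusted p = 2.11e-05). Msi2, an RNA-binding protein of progenitor cells, was the higher one, at 1.44 in cells and 1.88 in allografts.

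Of 7 genes that textbooks give as targets of these proteins (Ptbp2, Dlg4, Gap43, Mapt, Rest, Gphn and Agrn), 1 was called higher and 2 lower in 57SCLC in each setting, which is near the share of all genes called (46.1% in cells and 30.4% in allografts) and no result about the list. The higher one was Mapt, which encodes tau, with 610, 551 and 925 normalized counts in the flasks and 37.5, 32.0 and 32.3 in the dishes (log2 fold change 4.28 in cells and 5.08 in allografts, adjusted p = 5.74e-07 and 0.000131). Lung had 9790 to 10150, more than any tumor or cell sample. Gap43, a growth cone protein whose mRNA Elavl4 is known to stabilize, was lower in 57SCLC, with 22, 26 and 35 reads (12 to 18.2 normalized counts) in the flasks against 69.4, 61.8 and 66.9 in the dishes (-2.06 in cells and -4.16 in allografts, adjusted p = 5.25e-05 and 0.00048). Rest was the other lower gene. These are total counts per gene, and exon use was not measured.

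Markers of other cell types with neural genes were read beside these results. Of 4 peripheral neuron genes (Phox2a, Dbh, Th and Prph), Dbh was at the floor in all flasks and dishes and Th in all samples of 46LCNEC and Lung, and the list summed to 346 to 461 in 57SCLC_cell, 531 to 664 in 57SCLC_allo and at most 68.6 elsewhere. The 5 Schwann cell genes summed to 7397 to 9181 in 57SCLC_cell and 5779 to 7115 in 57SCLC_allo, nearly all of it Mbp, against 568 to 3742 elsewhere. The part of these markers in the results was not tested.

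Genes whose pattern over the 5 groups was most like that of a member were ranked among 15417 genes with a mean of at least 100 in 1 group or more, by the root mean square difference of centred log2 group means. Nearest to Srrm4 was another member, Elavl2 (0.372), followed by Gm43122 (0.427), Sncb (0.495) and Sall4 (0.527). Nearest to Elavl3 were St8sia5 (0.469), Cnpy1 (0.484), Gm20468 (0.630) and Sox1ot (0.644). Nearest to Ptbp1 were Phb2 (0.0435), Utp18 (0.0528), Nars (0.0552) and Csdc2 (0.0733). The likeness is over 5 group means only.

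Since 8 of the genes moved together between the lines, the bases before their starts were read. RefSeq's promoter table for GRCm38.p6, an older build than that of the counts, holds all 10 genes with 24 starts, and the 250 bases before each start were searched on both strands. The core of the REST site (the RE1 element) was searched as CAGCACC, then any 2 bases, then GGACAG. It was in none of the 24 windows and in 0.0335% of the 32851 windows of all genes. The E-box CAGCTG, of the kind bound by neuronal basic helix-loop-helix factors, was in windows of Elavl3, Elavl4, Nova1 and Celf3. These were 4 of the 10 genes, against 3979 of 27025 genes in the table, and 7 of the 24 windows, against 13% of all windows. The GC box GGGCGG was in windows of Elavl2, Elavl3, Nova2 and Celf3. These were 4 of the 10 genes, against 9555 of 27025 genes, and 10 of the 24 windows, against 32.7% of all windows. Starts of 1 gene overlap, so the windows are not independent. Shown here are Elavl3 and Celf3, which hold the E-box, Srrm4, which was at the floor outside 57SCLC and holds none of the motifs, and Ptbp1, which was called in neither line comparison. Each is the 250 bases before the start, or before the most upstream of the 7 starts for Celf3, read 5′ to 3′ on the strand of the gene, with motifs in capitals. They lie at chr9:22052024-22052273 (minus strand), chr3:94478045-94478294 (plus), chr5:116591818-116592067 (minus) and chr10:79854182-79854431 (plus).
Elavl3: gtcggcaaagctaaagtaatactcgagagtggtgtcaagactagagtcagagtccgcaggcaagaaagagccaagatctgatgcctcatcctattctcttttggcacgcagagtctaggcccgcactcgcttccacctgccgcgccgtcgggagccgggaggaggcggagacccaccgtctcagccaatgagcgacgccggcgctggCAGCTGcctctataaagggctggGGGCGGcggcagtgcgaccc
Celf3: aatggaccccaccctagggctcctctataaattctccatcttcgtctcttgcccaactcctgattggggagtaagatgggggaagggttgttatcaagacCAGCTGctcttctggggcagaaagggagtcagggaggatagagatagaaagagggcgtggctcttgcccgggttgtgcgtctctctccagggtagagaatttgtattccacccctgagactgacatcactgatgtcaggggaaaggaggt
Srrm4: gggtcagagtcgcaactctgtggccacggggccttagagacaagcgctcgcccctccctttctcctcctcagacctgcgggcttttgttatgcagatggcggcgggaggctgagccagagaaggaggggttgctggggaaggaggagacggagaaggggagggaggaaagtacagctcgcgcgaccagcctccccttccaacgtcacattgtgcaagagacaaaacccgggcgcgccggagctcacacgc
Ptbp1: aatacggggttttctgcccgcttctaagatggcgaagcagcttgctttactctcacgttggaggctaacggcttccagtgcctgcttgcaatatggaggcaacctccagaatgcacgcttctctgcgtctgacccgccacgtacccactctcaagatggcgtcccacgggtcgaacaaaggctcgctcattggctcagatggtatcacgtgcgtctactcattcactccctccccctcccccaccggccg
In the Elavl3 window the E-box begins 43 bases and the GC box 20 bases before the start, and in the Celf3 window the E-box begins 150 bases before it. A match in letters is not a bound site, and no match says nothing of the factor.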

How the data were processed

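Poly-A selected RNA of 15 samples, 3 per group, was sequenced as paired-end reads. Rbowtie2 was the authors' aligner (GRCm39) and featureCounts, with GENCODE M27, their counter, and they deposited 1 matrix of DESeq2-normalized counts, a signal proportional to reads within a sample. Strand and multi-mapping settings are not given in the sources used here. Each column's non-zero values were whole multiples of its smallest step (tolerance 0.01), which gave back the reads per gene. Library totals ran from 9480244 to 44876572 reads, and intervals and floors cover counting error only. Nothing says that the flasks, dishes or tumors were independent experiments, so p-values measure the spread between these samples.

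Groups were taken from the sample labels. Genes that reached 10 normalized counts in 3 or more of the compared samples were tested with limma 3.58.1 (R 4.3.3, trended variance) on log2(normalized count + 1) in 9 comparisons, with Benjamini-Hochberg adjustment over all genes tested. A gene was called at an adjusted p of at most 0.01 and a change of at least 2-fold. A gene under 10 normalized counts in every sample of 1 group passed the filter only through the other group. Between 2 groups its direction was then fixed. Fold changes of low genes depend on the added constant and are understated. Values after ± in log2 fold changes are standard errors. Alternatives were DESeq2 1.42.0 and edgeR 4.0.16 on the recovered reads, other scalings, constants, filters and models, and each sample left out in turn. The fitting code was tested on simulated data. Levels per length used GENCODE M39 merged exons. Further calculations used Python 3.11.15.

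The members and lists were chosen with earlier results of these data known, so no list was tested as a set. Within lists, values were given for up to 4 genes with the largest changes among those called between the allografts and for Ptbp2, Srrm3 and Rest as partners of members. Rcor3 was named after its value was seen. Genes shown as most alike were the nearest 4 by the stated measure. Promoters shown were chosen after values and motifs were seen. Amino acid sequences were not used here, and some genes of the planned lists are not reported here.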

Additional observations from a re-analysis of the deposited data

Results flagged for a closer look

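The difference between the lines changed from culture to allografts for 5 of the 10 genes by the interaction term in limma, given here as the log2 difference in allografts minus that in cells. It was larger in allografts for Nova1 (3.9493, adjusted p = 0.0026) and Celf3 (1.1825, adjusted p = 0.00885). It was smaller for Nova2 (-3.0399, adjusted p = 8.95e-05), Rbfox3 (-3.0362, adjusted p = 0.00598) and Elavl4 (-2.0566, adjusted p = 0.0092). For Nova1, Nova2 and Rbfox3 the change lay in 46LCNEC, where each was called between tumors and dishes, while none of the 10 genes was called between tumors and flasks of 57SCLC. Elavl4 had at most 4 reads in any dish, so its value depends on the constant added before the logarithm. The endothelial, fibroblast and immune markers were higher in the 46LCNEC tumors than in the dishes, and their part in these values was not tested. The fibroblast sum was above that of Lung in the dishes already, so it does not stand for host cells alone.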

How the results depend on the processing

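In both line comparisons 8 genes were called whichever sample was left out. When a sample was left out, 4 to 5 genes were called for 46LCNEC_cell over Lung, 6 to 8 for 57SCLC_cell over Lung, 1 to 4 for 46LCNEC_allo over Lung, 6 to 7 for 57SCLC_allo over Lung, 2 to 4 for 46LCNEC_allo over 46LCNEC_cell, 0 to 2 for 57SCLC_allo over 57SCLC_cell and 2 to 5 for the interaction. A test against a 2-fold change called 5 genes for 57SCLC_cell over Lung (8 in the test used), 2 for 46LCNEC_allo over Lung (4) and 1 for the interaction (5). For the interaction, library size scaling, no filter and a constant of 0.1 each called 3, with Elavl4 and Celf3 lost, and the call of Rbfox3 was also lost with edgeR and a constant of 5. Of 82 counts under settings other than a left-out sample, 76 were within 1.5 times the count given. Of 1300 recomputed log2 fold changes of single members, 1202 kept their direction and call, 75 lost a call, 12 gained one and 11 changed sign, none of these with an adjusted p of at most 0.01.

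The sign changed for 4 results, none of them called. Celf3 in 46LCNEC_allo over Lung was 0.0329 with DESeq2, 0.0560 with edgeR, 0.0129 with TMM scaling and -0.3310 to 0.1024 with a sample left out. Elavl3 in 57SCLC_allo over 57SCLC_cell was -0.2231 to 0.1060 and Elavl1 in the interaction -0.0176 to 0.0943 with a sample left out. Elavl2 in the interaction was 0.64 in the test used (standard error 1.00), -0.37 with DESeq2 and -0.29 with edgeR, with at most 7 reads in any 46LCNEC sample. The cause was not tested.

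With the longest transcript as the length, Elavl1 made up 99.0% of the ELAV family in 46LCNEC_cell and 11.9% in 57SCLC_allo, and the ratio of Ptbp1 to Ptbp2 was 1.37 in 57SCLC_cell, 1.35 in 57SCLC_allo and 1.15 in Lung. With a constant of 5, 2 of the 4 genes nearest to Elavl3 and 1 of the 4 nearest to Srrm4 stayed among the nearest 4.

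Scaling by library totals moved the median log2 fold change of all genes to 0.23 between the cell groups and 0.274 between the allografts, and to 0.109 and 0.119 for 57SCLC_cell and 57SCLC_allo over Lung, with no change of sign among the members. A test against a 2-fold change called 2861 of all genes in place of 5312 between the allografts, 3451 in place of 6412 for 46LCNEC_allo over Lung, 1414 in place of 3738 for 46LCNEC_allo over 46LCNEC_cell, 1700 in place of 2842 for 57SCLC_allo over 57SCLC_cell and 1293 in place of 3233 for the interaction. Without dish C, 2428 were called for 46LCNEC_allo over 46LCNEC_cell. The letters A, B and C of dishes and flasks share a letter only: deviations of same-lettered samples correlated at 0.092, -0.084 and -0.006 over genes. With the letter as a replicate block, 8 members were called between the cell groups, and 4041 genes higher and 3756 lower, against 4043 and 3756 without it. Depth limits Elavl2 and Srrm4 outside 57SCLC, where most libraries were at or under the floor of 3 reads.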

Other observations

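The third gene of the PTB family, Ptbp3, known best from blood cells, shifted beside Ptbp1 in 46LCNEC. It had 2845 ± 67.7 normalized counts in the dishes, 6472 ± 1059 in the tumors of that line, 4715 ± 147 in the flasks, 5924 ± 636.5 in the 57SCLC tumors and 5563 ± 446 in Lung (SD, n = 3). Ptbp3 was called higher in the tumors than in the dishes of 46LCNEC (log2 fold change 1.17 ± 0.13, adjusted p = 0.000418, limma). Per kilobase of merged exons it made up 28.5% ± 2.18 of the 3 PTB genes in the dishes and 64.0% ± 2.05 in the 46LCNEC tumors, while Ptbp1 made up 43.3% ± 3.70 and 21.8% ± 3.46. The summed level of the family was 1260 and 1273 normalized counts per kilobase in these groups. These shares and sums depend on the length used. Merged exons and the longest transcript are 12393 and 6299 bases for Ptbp2, 4816 and 3371 for Ptbp1, and 7957 and 7182 for Ptbp3. The endothelial, fibroblast and immune markers were higher in the same tumors, and their part in this was not tested. Ptbp3 was chosen after its values were seen.

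Against Lung, 6 of the 8 neural relatives tested were called higher in 46LCNEC_cell and none lower, where 20.6% of all genes were called higher and 35% lower. Of the members, 2 (Ptbp1 and Elavl3) were called higher there and 3 (Nova2, Rbfox3 and Elavl4) lower. In 46LCNEC_allo, 2 of 7 relatives were called higher than in Lung, where 13.4% of all genes were.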
